A study of Mus musculus with 9 samples.

Results

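The contractile apparatus of smooth muscle was followed through 36 genes in the aortae of 9 mice. The genes were chosen by symbol for their known place in the machinery, from 55453 genes listed in the count table. They comprise 11 genes of the thin filament, 8 of the myosin light chain and its regulation, 13 of dense bodies, adhesions and intermediate filaments, and 4 of the membrane. All 36 passed the filter on low counts that left 19412 genes to be tested, and the smallest count of any of them in any library was 121, for Sgca. From general knowledge, 12 of the 36 are also abundant in skeletal or heart muscle (Tpm1, Tpm2, Des, Synm, Synpo2, Pdlim3, Ldb3, Itga7, Sgca, Hspb6, Ppp1r12b and Vcl), and these were read apart from the other 24.

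The groups had 3 mice each, all C57BL/6J, and polyadenylated RNA was sequenced from the whole aorta. Itga8-Cre mice carried Itga8-CreERT2, a Cre recombinase that is active only once tamoxifen binds it and that is tied to Itga8, the gene of an integrin alpha chain. Myh11-Cre mice carried Myh11-CreERT2, the same kind of recombinase tied to Myh11, the gene of the smooth muscle myosin heavy chain, and Wild Type mice served as controls. Sex, age, tamoxifen treatment, floxed alleles, transgene copy number and batch are not given in the labels, and neither Cre group can therefore be read by its recombination. The series was made to set the activity of the Itga8 driver against that of the Myh11 driver. Both Cre groups were compared with the same 3 Wild Type mice, so these comparisons are not independent.

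Smooth muscle contracts when calcium bound to calmodulin switches on myosin light chain kinase, which phosphorylates the regulatory light chain and lets myosin pull on actin. Myosin phosphatase takes the phosphate off again, and its inhibitors and cyclic GMP kinase set how strongly the muscle holds its tension. The thin filaments end in dense bodies and in adhesion plaques at the membrane, which take the place of the Z discs of striated muscle. Many genes of this machinery are known targets of serum response factor and its cofactor myocardin, which act through a short promoter element called the CArG box (CC, then A or T at each position of a core, then GG). In whole tissue, fewer smooth muscle cells and less RNA of these genes per cell cannot be told apart.

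The promoter windows show how many of these genes carry that element next to the start. RefSeq windows from 250 bases before to 50 bases after the annotated start (GRCm38.p6) were found for 31 of the 36 symbols, with none for Actg2, Tagln, Sorbs3, Itga7 and Aoc3. A CArG box of 10 bases, which reads as a CArG box on either strand, was present in 6 of the 31 windows (19.4%) and in 488 of 27025 windows of all symbols (1.81%). When 1 departure from A or T was allowed in the core of 6, the numbers were 11 of 31 (35.5%) against 11.3% of all windows. A match describes the letters of the window and is not evidence of a bound site. The boxes of the 6 genes are shown 5′ to 3′ on the gene's strand with the CArG box in capitals, together with the 2 boxes of Acta2, which have 1 departure each and were added because the other genes are read against Acta2.
Cnn2, chr10:79988519-79988578, plus strand: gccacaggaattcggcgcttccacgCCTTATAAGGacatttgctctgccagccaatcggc
Myl9, chr2:156775278-156775337, plus strand: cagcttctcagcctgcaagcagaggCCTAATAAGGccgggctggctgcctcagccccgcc
Myl6, chr10:128493025-128493084, minus strand: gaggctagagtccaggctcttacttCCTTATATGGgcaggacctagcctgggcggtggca
Vcl, chr14:20929148-20929205, plus strand: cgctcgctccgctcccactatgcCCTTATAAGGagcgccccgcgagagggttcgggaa
Filip1l, chr16:57549155-57549214, plus strand: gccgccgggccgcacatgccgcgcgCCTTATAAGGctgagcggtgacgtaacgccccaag
Ldb3, chr14:34588682-34588741, minus strand: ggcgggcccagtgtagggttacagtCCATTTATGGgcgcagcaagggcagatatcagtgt
Acta2, chr19:34255423-34255482, minus strand: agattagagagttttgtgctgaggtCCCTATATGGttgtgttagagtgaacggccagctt
Acta2, chr19:34255374-34255432, minus strand: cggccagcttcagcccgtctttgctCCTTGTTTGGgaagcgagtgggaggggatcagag
Cnn2, Vcl and Filip1l hold the same 10 letters in capitals. The first base of the box lay 35 bases before the RefSeq start in Ldb3, 50 in Myl6, 56 in Cnn2, 62 in Filip1l, 161 in Myl9 and 227 in Vcl, and the boxes of Acta2 lay 84 and 34 bases before it. The gene coordinates given below are those of GENCODE M21, which can begin elsewhere. The boxes shown for Acta2, Myl6 and Filip1l lie inside the GENCODE coordinates of these genes. The 6 genes did not all share a pattern across the 9 libraries. Myl9, Myl6, Vcl and Filip1l were highest in Wild Type 1, as Acta2 was, and of these Myl9 followed Acta2 most closely. Ldb3 was highest in Myh11-Cre 2 and 3, and Cnn2 was highest in Itga8-Cre 2.

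Levels of different genes were compared per length, as RPKM, the reads scaled by exon length and by library size. Acta2 (chr19:34241090-34255590), the actin of vascular smooth muscle, stood first in Wild Type at 263 ± 182 RPKM (SD, n = 3). Flna, the filamin that crosslinks actin at dense bodies, followed at 189 ± 43.1 RPKM, then Myl9, the regulatory light chain, at 142 ± 73 RPKM and Tagln, the thin filament protein transgelin, at 116 ± 65.7 RPKM. At the low end were Sgca, a sarcoglycan of the dystrophin complex, at 3.52 ± 1.1 RPKM and Prkg1, the cyclic GMP kinase, at 2.42 ± 0.203 RPKM. The order is loose, since of 35 neighbouring pairs the 3 Wild Type libraries did not overlap in 3, namely Myl6 above Aoc3, Synm above Pdlim3 and Sgca above Prkg1.

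Acta2 was not the leading actin of these whole aortae. Per length, the cytoplasmic actin Actb lay between 542 and 892 RPKM and above Acta2 in all 9 libraries. Acta2 itself lay at 97, 146 and 137 RPKM in Itga8-Cre 1, 2 and 3, at 77.7, 289 and 271 in Myh11-Cre 1, 2 and 3, and at 473, 147 and 171 in Wild Type 1, 2 and 3. Actg2, the actin of visceral smooth muscle, ranged from 3.38 to 21.4 RPKM and lay below Acta2 in every library. Acta1, the actin of skeletal muscle and not one of the 36, lay at 14.4, 250 and 977 RPKM in Itga8-Cre, at 2.98, 1551 and 2367 in Myh11-Cre and at 94.6, 178 and 223 in Wild Type. It exceeded Acta2 in 6 of the 9 libraries, all but Itga8-Cre 1, Myh11-Cre 1 and Wild Type 1. Actc1, the cardiac actin and also not one of the 36, lay at 160, 371 and 163 RPKM in Itga8-Cre, at 241, 451 and 410 in Myh11-Cre and at 150, 252 and 117 in Wild Type, above Acta2 in 7 of the 9 libraries, all but Wild Type 1 and 3. No stretch of 75 bases, the read length, was shared between the annotated transcripts of Acta2 or Actg2 and those of another gene.

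Markers of other tissues differed widely between mice of the same group. Summed over 15 skeletal muscle markers, all detected in every library, the level in CPM (counts scaled by library size) was 283, 2754 and 9119 for Itga8-Cre, 214, 13230 and 20720 for Myh11-Cre, and 1174, 2061 and 2482 for Wild Type. The 6 cardiac markers, also detected in every library, summed to 1668 to 7664 CPM for Itga8-Cre, 2439 to 8294 for Myh11-Cre and 1273 to 3863 for Wild Type, and the 6 brown fat markers to 2157 to 7165, 3192 to 6672 and 2704 to 3610 CPM. Smooth muscle markers outside the 36 (Myh11, Cspg4, Notch3, Kcnmb1 and Myocd) were all detected too, and their sums of 891, 1009 and 879 CPM for Itga8-Cre lay below the 1770, 1428 and 1321 CPM of Wild Type. Singly, Kcnmb1 and Myocd overlapped. Of the other lists, the sums of macrophage markers (403 to 853 against 228 to 347 CPM) and mesothelial markers (36.9 to 55 against 16.1 to 36.2 CPM) lay higher in Itga8-Cre without overlap with Wild Type. The mesothelial gap was narrow, and Csf1r and Upk3b of these lists overlapped singly. Endothelial markers summed lower there (553 to 697 against 699 to 759 CPM), by a narrow gap and with every single marker overlapping. The mesothelial sum was higher also in Myh11-Cre (54.7 to 118 CPM). Total counts ran from 31419238 to 42497543 per library.

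The 36 genes differed in how far they spread over the mice. The widest was Tpm2, the beta tropomyosin, which spanned 15.7-fold between Myh11-Cre 1 with 70.1 CPM and Myh11-Cre 3 with 1100 CPM. The narrowest was Tln1, the talin that links integrins to actin, which spanned 1.27-fold from 375 to 476 CPM. Myh11-Cre 1 was the lowest of the 9 libraries for 21 of the 36 genes, as it was for 14.1% of all genes tested, and Itga8-Cre 1 for 6 (9.09% of all). Wild Type 1 was the highest for 18 of the 36, against 8.02% of all genes. These 18 were 17 of the 24 genes less known from striated muscle and 1 of the other 12, Vcl. Myh11-Cre 2 or 3 was the highest for 14, against 19.4% of all genes, and these were 11 of the 12 genes shared with striated muscle and 3 of the other 24.

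**Figure D1:**
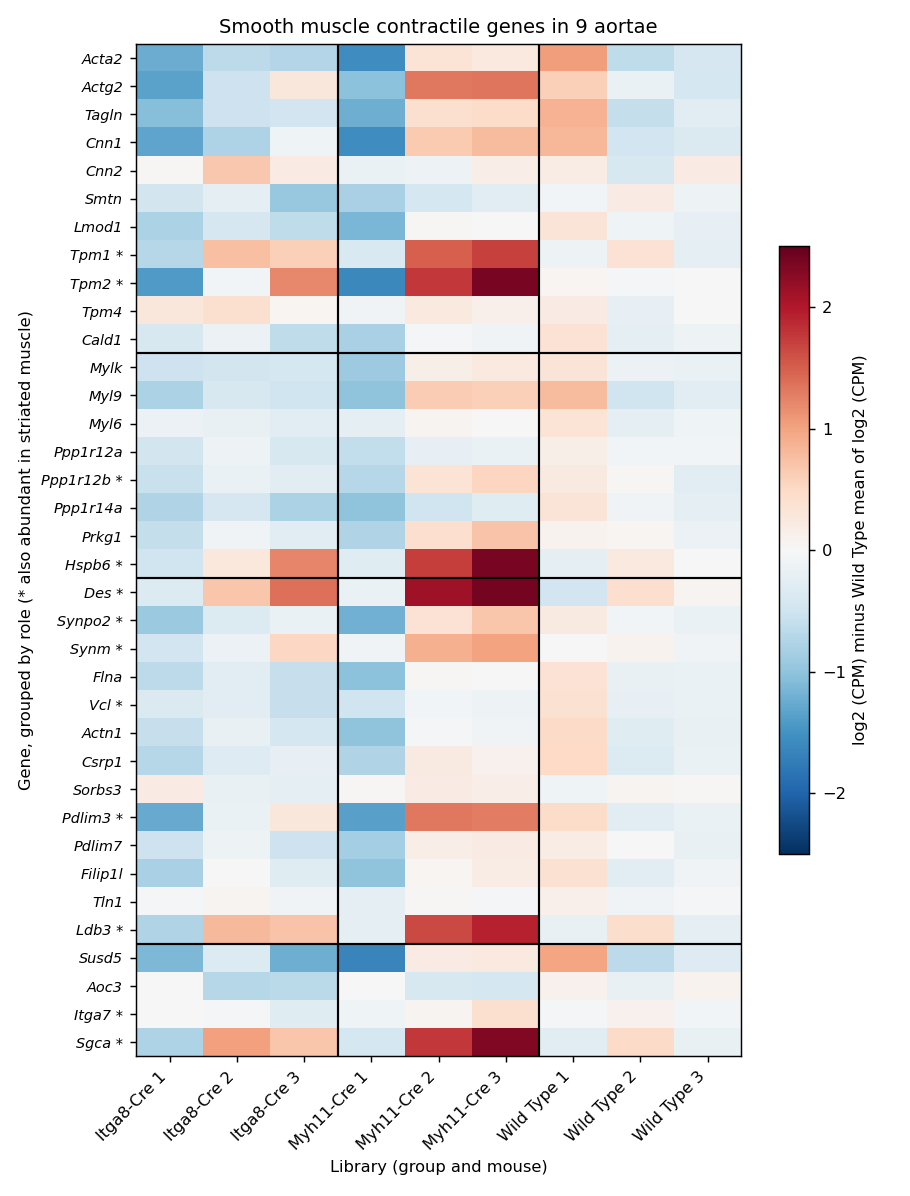
Level of each of the 36 genes (rows, grouped by role, an asterisk marking genes also abundant in striated muscle) in each of the 9 libraries (columns), as log2 CPM minus the Wild Type mean on a color scale from blue (lower) to red (higher). Myh11-Cre 1 is blue for most genes, Wild Type 1 is red for Acta2, Tagln, Cnn1, Myl9 and Susd5, and Tpm2, Hspb6 and Des are darkest in Myh11-Cre 3.

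Relative to the Wild Type mean, the 12 genes shared with striated muscle had a median log2 level of -0.64, -0.06 and 0.55 in Itga8-Cre 1, 2 and 3, of -0.41, 1.41 and 1.49 in Myh11-Cre 1, 2 and 3, and of -0.01, 0.09 and -0.17 in Wild Type. The other 24 had medians of -0.59, -0.25 and -0.44 in Itga8-Cre, -0.88, 0.11 and 0.14 in Myh11-Cre, and 0.33, -0.19 and -0.17 in Wild Type. The median of the 12 was thus highest in Itga8-Cre 3 and Myh11-Cre 2 and 3, the 3 libraries with the most skeletal muscle transcripts. Both groups of genes were low in Itga8-Cre 1 and Myh11-Cre 1, the 2 libraries with the fewest. Cardiac markers were ordered otherwise, highest in Itga8-Cre 2, Myh11-Cre 2 and Myh11-Cre 3 (7664, 8294 and 7596 CPM) and at 1810 CPM in Itga8-Cre 3. Of the 12, Tpm1, Sgca and Ldb3 were higher in Itga8-Cre 2 than in Itga8-Cre 3. The part of skeletal or cardiac muscle RNA in the levels of single genes was not tested.

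**Figure D2:**
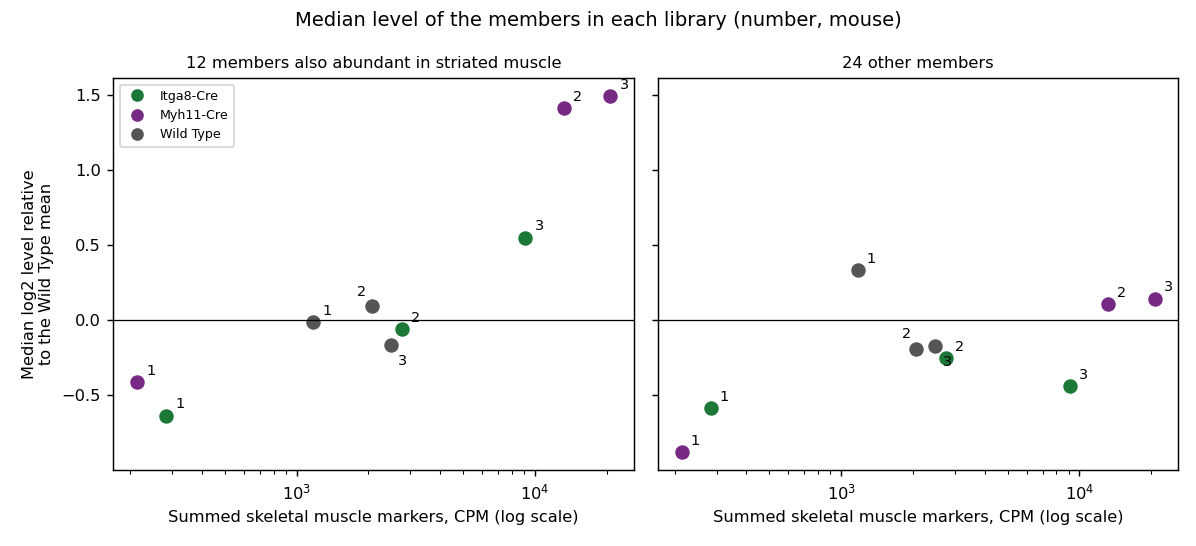
Median log2 level relative to the Wild Type mean (y axis) against the summed CPM of 15 skeletal muscle markers on a log scale (x axis), with 1 point per library, colored by group and numbered by mouse, for the 12 genes also abundant in striated muscle (left) and the other 24 (right). On the left Myh11-Cre 2 and 3 stand at 1.41 and 1.49 at the right end of the axis, and on the right the same 2 libraries stand at 0.11 and 0.14, below Wild Type 1 at 0.33.

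Tagln, Cnn1, Myl9 and the membrane gene Susd5 stayed nearest to a constant proportion of Acta2 among the 36. Likeness was measured as the SD over the 9 libraries of the log2 ratio to Acta2, and by this measure Tagln ranked 2 among all genes tested (0.15), Susd5 ranked 7 (0.22), Myl9 ranked 8 (0.23) and Cnn1, calponin, ranked 17 (0.29). Per length, Tagln stood at 0.517, 0.508 and 0.549 of Acta2 in Itga8-Cre, 0.583, 0.483 and 0.535 in Myh11-Cre, and 0.405, 0.477 and 0.511 in Wild Type. Acta2 itself spanned 6.08-fold over the same libraries, while the ratio of Tagln spanned 1.44-fold, that of Susd5 1.75-fold, that of Myl9 1.76-fold and that of Cnn1 1.80-fold. The 10 genes most like Acta2 were Npnt, Tagln, Ccn3, Pi15, Itgbl1, Kcnmb1, Susd5, Myl9, Mfap4 and Nox4, of which Kcnmb1 encodes the smooth muscle subunit of the large calcium-activated potassium channel. Genes that share the same libraries and the same Acta2 values are not independent here, and the order is a description.

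Other genes of the machinery did not follow Acta2. Desmin (Des, chr1:75360329-75368579), the muscle intermediate filament, had an SD of 1.12 on the same scale, Tpm2 had 1.02, Sgca 1.02 and Hspb6, a small heat shock protein of muscle, 1.00. Per length, Des stood at 0.301, 0.414 and 0.699 of Acta2 in Itga8-Cre, at 0.425, 0.557 and 0.716 in Myh11-Cre, and at 0.0561, 0.336 and 0.228 in Wild Type. The low ratio of Wild Type 1 came with the highest Acta2 and the lowest Des of the 9 libraries. Cnn2, Tpm4, Sorbs3, Tln1, Smtn, Aoc3 and Itga7, with SDs of 0.73 to 0.88, varied by 1.27-fold to 2.21-fold in level, against 6.08-fold for Acta2. They are not set apart by this, since genes with lower SDs also stayed within that span, such as Myl6 (1.53-fold, SD 0.65).

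**Figure D3:**
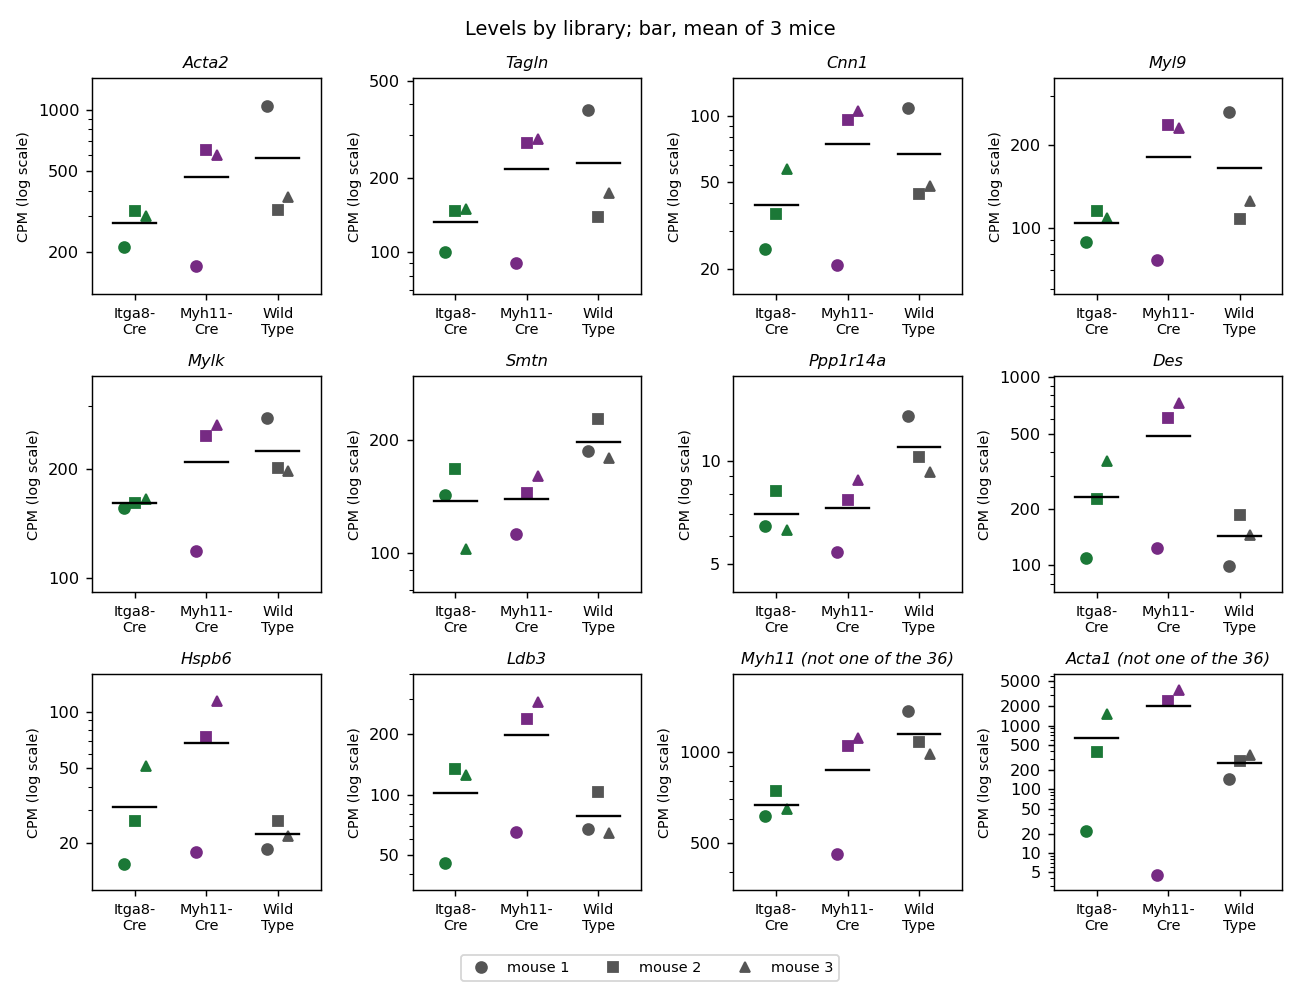
CPM on a log scale (y axis) of 10 of the 36 genes and of Myh11 and Acta1 in each mouse (points, shape by mouse number) of the 3 groups (x axis), with bars at the mean of 3 mice. Myh11-Cre 1 lies far below Myh11-Cre 2 and 3 in most panels, Wild Type 1 lies above Wild Type 2 and 3 for Acta2 (1038 against 323 and 375 CPM), and Acta1 spans from 4.57 to 3636 CPM.

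Itga8-Cre was set against Wild Type to see whether aortae with the new driver held a different level of contractile transcripts. Of the 36 genes 27 lay lower in Itga8-Cre, with a median log2 fold change of -0.37 where all genes tested had 0.04. None passed edgeR's quasi-likelihood test adjusted over all genes (0% of all genes did, smallest adjusted p among the 36 = 0.699), and limma voom called 0 of them as well. DESeq2 also called 0 of them, and 0.166% of all genes. At an unadjusted p under 0.05 there were 3, all lower, where 6.78% of all genes reached this p and 2.81% did so with lower levels. By role, 7 of 11 thin filament genes lay lower, 7 of 8 light chain genes, 10 of 13 dense body genes and 3 of 4 membrane genes, with medians of -0.44, -0.33, -0.36 and -0.27. The 12 genes shared with striated muscle had a median of 0.15 and the other 24 a median of -0.44.

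Among the actin filament genes, Acta2 had 213, 320 and 302 CPM across Itga8-Cre and 1038, 323 and 375 CPM across Wild Type. All 3 Itga8-Cre libraries lay below the Wild Type libraries, but Itga8-Cre 2 was only just under Wild Type 2, and the groups overlapped when CPM were scaled by library totals alone. The means were 278 ± 57.3 against 578 ± 399 CPM, 2.08-fold lower in Itga8-Cre, with a log2 fold change of -1.06 (SE 0.57, edgeR adjusted p = 0.699) that shrank to -0.34 without Wild Type 1. Tagln was at 99.6, 147 and 150 CPM against 380, 139 and 173 CPM (-0.80, SE 0.49, adjusted p = 0.707), and -0.25 without Wild Type 1. Cnn1 was at 24.7, 35.8 and 57 CPM against 109, 44 and 47.9 CPM (-0.77, SE 0.60, adjusted p = 0.743), and -0.24 without Wild Type 1. In both genes the groups overlapped, and the distance between the means rested mainly on Wild Type 1.

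Smtn (chr11:3517523-3540612), the actin-binding protein smoothelin of contractile cells, had a steadier difference. Its CPM were 143, 167 and 102 across Itga8-Cre mice, against 187, 226 and 179 across Wild Type mice. The highest Itga8-Cre library lay below the lowest Wild Type library, with a log2 fold change of -0.52 (SE 0.21, unadjusted p = 0.0329, edgeR adjusted p = 0.699). Lmod1, leiomodin, which starts new actin filaments, was at 36.8, 47.2 and 40.9 CPM against 79.1, 58.6 and 54.7 CPM (-0.62, SE 0.29). Lmod1 and Mylk were the 2 genes that did not overlap under library totals as well, where 4.44% of all genes were lower in this way.

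In the light chain group, Mylk, the myosin light chain kinase, was at 156, 161 and 165 CPM in Itga8-Cre, a narrow band below the 277, 202 and 198 CPM of Wild Type (-0.49, SE 0.28, adjusted p = 0.703). Myl9 was at 88.3, 115 and 108 CPM against 262, 107 and 125 CPM, so that Wild Type 2 fell within the Itga8-Cre range (-0.67, SE 0.46, adjusted p = 0.717, and -0.17 without Wild Type 1). Of the 8 genes of this group, 3 were lower without overlap, namely Mylk, Ppp1r14a and Ppp1r12a. Ppp1r12b overlapped, at 117.5, 154.7 and 144.4 CPM against 202.8, 176.8 and 143.6 CPM (-0.33, SE 0.29, edgeR adjusted p = 0.770). Prkg1 overlapped too (-0.30, SE 0.32). Ppp1r14a (chr7:29289308-29293801), the inhibitor of myosin phosphatase known as CPI-17, had the smallest p of the 36, at 6.46, 8.16 and 6.28 CPM against 13.5, 10.3 and 9.27 CPM (-0.66, SE 0.22, unadjusted p = 0.0159, edgeR adjusted p = 0.699). Ppp1r12a, the subunit that targets the phosphatase to myosin, was at 134, 170 and 141 CPM against 204, 177 and 176 CPM (-0.32, SE 0.15).

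Among dense body and adhesion genes, Vcl, vinculin of adhesion plaques, had 123, 130 and 106 CPM across Itga8-Cre and 205, 137 and 142 CPM across Wild Type (-0.43, SE 0.19, unadjusted p = 0.0478, edgeR adjusted p = 0.699). The groups did not overlap, and the value was -0.23 without Wild Type 1. Of the exon bases of Vcl, 25.5% are shared with Ap3m1 on the opposite strand. Des went the other way in its mean, at 109, 226 and 360 CPM against 99.6, 186 and 146 CPM (0.69, SE 0.63, adjusted p = 0.776), with overlap, and it was highest in Itga8-Cre 3, where skeletal muscle markers summed to 9119 CPM.

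In all, 8 of the 36 genes did not overlap between Itga8-Cre and Wild Type, all of them lower (Acta2, Smtn, Lmod1, Mylk, Flna, Vcl, Ppp1r12a and Ppp1r14a), where 11.1% of all genes did not overlap and 5.37% were lower. Under library totals the count was 2. Left out in turn, single libraries gave 9 to 15, with 10 lower and 5 higher without Itga8-Cre 1 (14.6% and 18.5% of all genes), 14 lower without Itga8-Cre 2 (14.0%), 13 lower and 1 higher without Itga8-Cre 3 (7.81% and 9.56%) and 15 lower without Wild Type 2 (7.87%). The 5 higher genes without Itga8-Cre 1 were Tpm1, Des, Hspb6, Sgca and Ldb3, each also abundant in striated muscle. As ratios to Acta2, 7 of the other 35 genes lay higher in Itga8-Cre without overlap (Cnn2, Myl9, Myl6, Tpm4, Csrp1, Filip1l and Tln1), a share of 20.0% that lay under the 31.9% of all genes. The count of ratios without overlap was 14 of 35 without Itga8-Cre 1 (40.0%, against 34.9% of all genes) and 19 without Wild Type 2 (54.3%, against 59.9%).

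**Figure D4:**
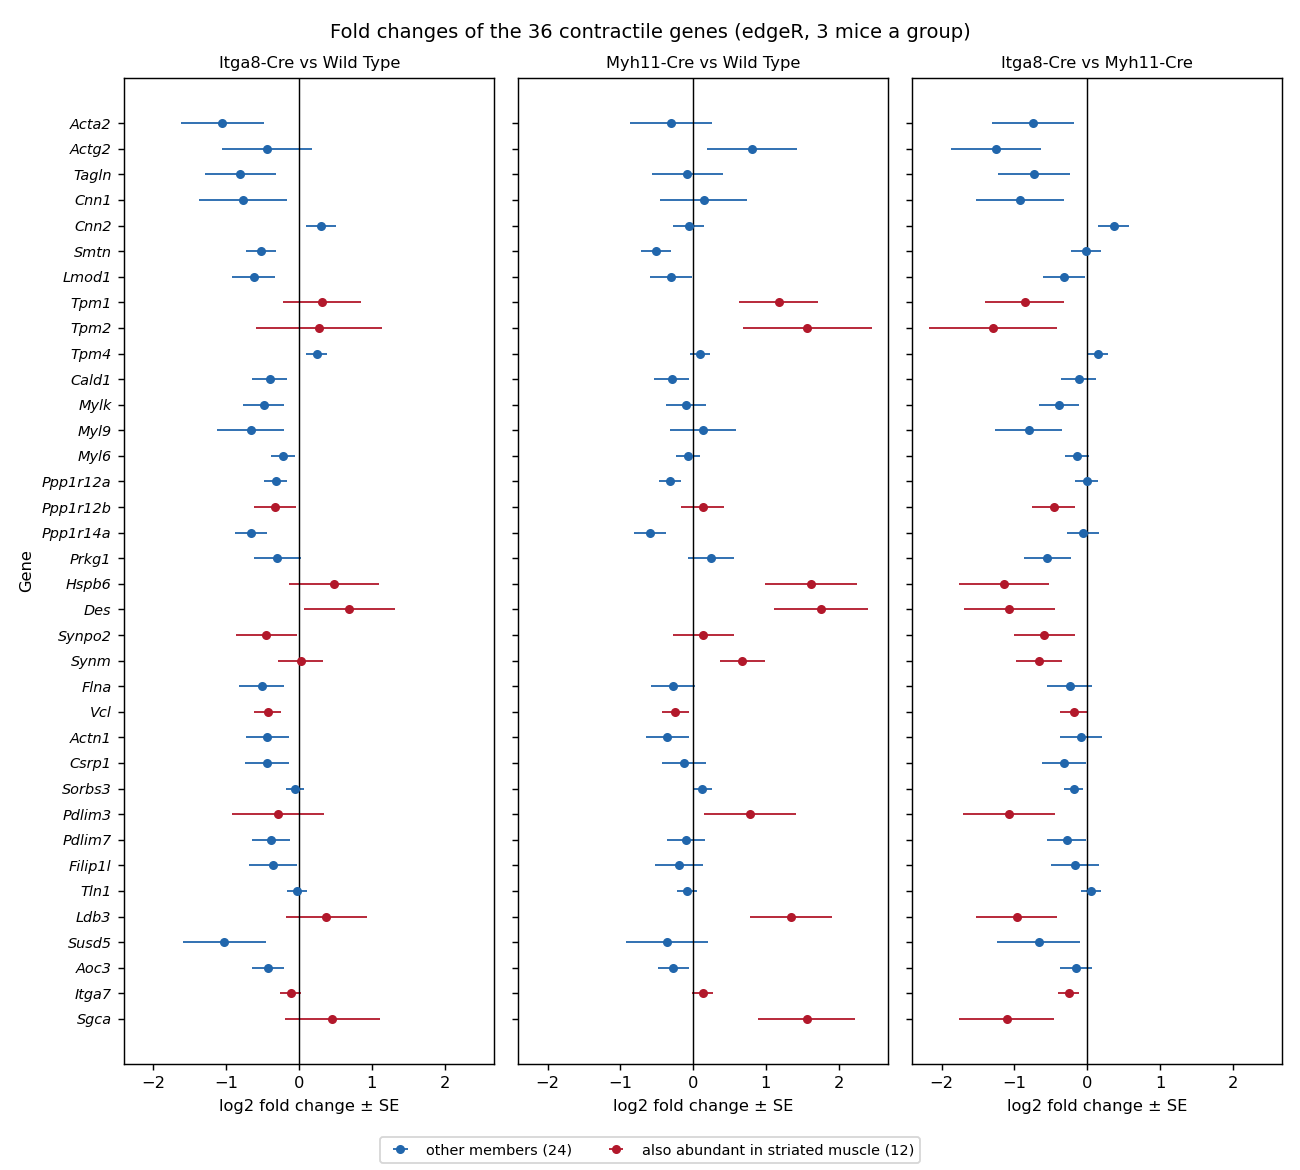
Log2 fold change with its SE (x axis) of each of the 36 genes (y axis) in the 3 comparisons, from edgeR with 3 mice a group, red for the 12 genes also abundant in striated muscle and blue for the other 24. In Myh11-Cre against Wild Type the red points reach 1.76 for Des while most blue points lie near or below 0, and the 36 had no edgeR call in any of the 3 comparisons.

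In Myh11-Cre against Wild Type, the 12 genes also abundant in striated muscle had a higher median than the other 24. The median log2 fold change of the 12 was 0.98, with 11 higher, and that of the 24 was -0.11, with 18 lower. The 36 together had -0.07 and all genes tested 0.01. Vcl of the 12 was lower (-0.24), and Actg2 of the 24 was higher (0.81). By library, the median level of the 12 relative to the Wild Type mean was 1.41 and 1.49 in Myh11-Cre 2 and 3, but -0.41 in Myh11-Cre 1. None passed edgeR's test (0% of all genes did), limma voom called 0, and DESeq2 called Des alone (adjusted p = 0.0490), where it called 4.44% of all genes. At an unadjusted p under 0.05 there were 6, where 16.4% of all genes reached it. Des, Hspb6, Ldb3 and Sgca were higher (6.93% of all genes were), and Ppp1r14a and Smtn lower (9.48%). These were 16.7% of the 36, near the share of all genes.

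Des had 124, 605 and 729 CPM across Myh11-Cre and 99.6, 186 and 146 CPM across Wild Type. Myh11-Cre 1 lay inside the Wild Type range, and the other 2 lay far above it. The means were 486 ± 320 against 144 ± 43 CPM, 3.39-fold higher (log2 1.76, SE 0.64, edgeR adjusted p = 0.255). Hspb6 was at 17.9, 73.5 and 115 CPM against 18.7, 26.3 and 21.9 CPM (1.62, SE 0.63, adjusted p = 0.270). Here Myh11-Cre 1 lay below every Wild Type library, and the other 2 again lay far above. Ldb3 (chr14:34526603-34588682), a Z disc protein that binds alpha-actinin, was at 65.1, 240 and 292 CPM against 67.2, 104 and 64.6 CPM (1.34, SE 0.56, adjusted p = 0.290). Sgca was at 4.35, 20.1 and 29.7 CPM against 4.84, 8.30 and 5.18 CPM (1.56, SE 0.66, adjusted p = 0.292).

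In all 4 of these genes Myh11-Cre 1 lay within or just below the Wild Type range, and Myh11-Cre 2 and 3 stood above it. Skeletal muscle markers summed to 214 CPM in Myh11-Cre 1 and to 13230 and 20720 CPM in Myh11-Cre 2 and 3, and Acta1 was at 4.57, 2383 and 3636 CPM in these libraries. When Myh11-Cre 2, Myh11-Cre 3 and Itga8-Cre 3 were left out, which leaves 1 Myh11-Cre library, assumed to vary like the other groups, Des, Hspb6 and Ldb3 turned to -0.21, -0.32 and -0.27. Without Itga8-Cre 1 and Myh11-Cre 1, 5 genes were called higher by edgeR: Des (2.21, adjusted p = 0.0370), Hspb6 (2.07, 0.0425), Tpm1 (1.58, 0.0345), Sgca (2.02, 0.0360) and Ldb3 (1.75, 0.0345), where 1.34% of all genes were called. Both sets of libraries were chosen by their muscle transcripts, so these values describe that choice.

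Acta2, Tagln, Cnn1, Myl9 and Mylk had log2 fold changes from -0.31 to 0.15, with SEs of 0.28 to 0.60. Acta2 was at 171, 635 and 596 CPM in Myh11-Cre, so that the 3 Wild Type values of 1038, 323 and 375 CPM lay both between and above them (-0.31, SE 0.56, edgeR adjusted p = 0.799). Tagln was at 90.1, 278 and 289 CPM (-0.08, SE 0.49, adjusted p = 0.944), Cnn1 at 20.9, 95.8 and 106 CPM (0.15, SE 0.60, adjusted p = 0.912), Myl9 at 76, 236 and 231 CPM (0.14, SE 0.45, adjusted p = 0.894) and Mylk at 119, 247 and 264 CPM (-0.10, SE 0.28, adjusted p = 0.867). In each of the 5, Myh11-Cre 1 was the lowest of the 9 libraries and Wild Type 1 the highest. Without Myh11-Cre 1, Acta2, Tagln and Mylk turned to 0.09, 0.29 and 0.18, and without Wild Type 1 to 0.43, 0.49 and 0.08, and Cnn1 and Myl9 reversed without Myh11-Cre 2 (-0.07 and -0.09) or Myh11-Cre 3 (-0.20 and -0.08).

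Smtn, Ppp1r14a and Ppp1r12a were lower in every Myh11-Cre mouse than in every Wild Type mouse. Smtn was at 112, 144 and 160 CPM against 187, 226 and 179 CPM in Wild Type (-0.51, SE 0.21, unadjusted p = 0.0369, edgeR adjusted p = 0.279). Ppp1r14a was at 5.39, 7.66 and 8.78 CPM against 13.5, 10.3 and 9.27 CPM (-0.60, SE 0.22, unadjusted p = 0.0248, edgeR adjusted p = 0.257). Ppp1r12a was at 121, 161 and 165 CPM against 204, 177 and 176 CPM (-0.32, SE 0.15). These 3 were the only ones of the 36 (8.33%) whose Myh11-Cre and Wild Type libraries did not overlap. That share lay below those of all genes, of which 26.0% did not overlap and 14.7% were lower. The same 3 genes were lower in Itga8-Cre, against the same Wild Type mice, and between the Cre groups they differed by -0.01 for Smtn, -0.06 for Ppp1r14a and -0.01 for Ppp1r12a (SE 0.21, 0.22 and 0.15).

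The count without overlap was 17 without Myh11-Cre 1, with 13 higher and 4 lower (22.0% and 24.3% of all genes), and 5 without Wild Type 2 (18.3%, all lower). The 13 were 10 of the 12 genes shared with striated muscle together with Actg2, Sorbs3, a vinculin-binding adaptor, and Prkg1. The 4 were Smtn, Ppp1r12a, Ppp1r14a and Aoc3, an amine oxidase of smooth muscle and fat cells. As ratios to Acta2, 6 genes lay higher in Myh11-Cre without overlap (Actg2, Myl9, Tpm1, Des, Hspb6 and Ldb3), where 4.12% of all genes did and 4.17% did not overlap in either direction. The ratio of Myl9 to Acta2 per length was 0.842, 0.702 and 0.732 in Myh11-Cre and 0.477, 0.627 and 0.631 in Wild Type, and that of Actg2 was 0.0538, 0.0731 and 0.0790 against 0.0272, 0.0516 and 0.0368. Without Myh11-Cre 1 the count of ratios was 10 of 35 (28.6%, against 9.77% of all genes).

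Set against each other, the Cre groups had no difference in these genes that passed a test. In Itga8-Cre 33 of the 36 genes lay lower than in Myh11-Cre, with a median log2 fold change of -0.35 (all genes 0.01), and Cnn2, Tpm4 and Tln1 lay higher. None passed edgeR's test (0% of all genes), limma voom called 0 of the 36, DESeq2 called 0 of them and 0.109% of all genes, and none reached an unadjusted p under 0.05, where 9.48% of all genes did. None was without overlap, where 12.7% of all genes were. As ratios to Acta2 none was without overlap either (3.15% of all genes).

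The smallest p belonged to Synm, synemin, a partner of desmin. Its CPM were 45.2, 57.3 and 90.1 across Itga8-Cre and 59.5, 117 and 127 across Myh11-Cre (-0.66, SE 0.31, edgeR adjusted p = 0.539). Actg2 was at 5.26, 9.18 and 16.2 CPM against 6.51, 32.9 and 33.4 CPM (-1.25, SE 0.62, adjusted p = 0.548). In both genes Myh11-Cre 1 lay among the Itga8-Cre values and the other 2 Myh11-Cre libraries lay above them. Hspb6 had -1.14 (SE 0.62, adjusted p = 0.579), Ldb3 -0.97 (SE 0.56, 0.591), Myl9 -0.80 (SE 0.46, 0.589) and Des -1.07 (SE 0.63, 0.597), from the library values given above. Acta2 had -0.75 (SE 0.56, adjusted p = 0.668), Tagln -0.73 (SE 0.49, 0.640), Cnn1 -0.92 (SE 0.60, 0.633) and Mylk -0.38 (SE 0.28, 0.656).

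With any 1 library left out, edgeR called 0 of the 36, and their median ran from -0.64 to -0.22. The count without overlap turned on Myh11-Cre 1. Without it, 28 of the 36 genes lay lower in Itga8-Cre without overlap, where 14.7% of all genes did, and the exceptions were Cnn2, Smtn, Tpm4, Sorbs3, Ppp1r12a, Ppp1r14a, Aoc3 and Tln1. In the libraries that then remained, skeletal muscle markers were at 13230 and 20720 CPM in Myh11-Cre and at 283 to 9119 CPM in Itga8-Cre. When the 3 libraries with the highest skeletal sums (Myh11-Cre 2, Myh11-Cre 3 and Itga8-Cre 3) were left out instead, the median of the 36 turned from -0.35 to 0.43. That fit leaves 1 Myh11-Cre library, Myh11-Cre 1, the lowest of the 9 libraries for 21 of the 36 genes. The counts without overlap were 3 of 36 without Itga8-Cre 1 (8.33%, against 34.8% of all genes), 2 without Itga8-Cre 3 (5.56%, against 24.5%) and 1 without Myh11-Cre 3 (2.78%, against 17.1%). Those of ratios to Acta2 were 21 of 35 without Myh11-Cre 1 (60.0%, against 84.9% of all genes), 5 without Itga8-Cre 3 (14.3%, against 11.2%) and 1 without Itga8-Cre 1 (2.86%, against 4.47%).

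The rest of the contraction pathway was read from a list of 61 genes outside the 36, all of them tested. It holds, among others, the myosin heavy chains, calmodulins, calcium and cyclic GMP handling, adhesion plaque and dystrophin complex genes, and serum response factor with its cofactors. Here too edgeR called 0 in each comparison. At an unadjusted p under 0.05, 9 were lower and 0 higher in Itga8-Cre against Wild Type, 3 higher and 4 lower in Myh11-Cre against Wild Type, and 3 higher and 4 lower in Itga8-Cre against Myh11-Cre. Of all genes, 2.81% were lower and 3.97% higher at this p in the first comparison, 6.93% higher and 9.48% lower in the second, and 7.64% higher and 1.83% lower in the third.

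Of the genes of the Cre lines, Myh11 had CPM of 616, 745 and 649 across Itga8-Cre, 461, 1045 and 1114 across Myh11-Cre, and 1371, 1078 and 986 across Wild Type. Its log2 fold changes against Wild Type were -0.77 (SE 0.32, edgeR adjusted p = 0.699) in Itga8-Cre and -0.39 (SE 0.32, adjusted p = 0.544) in Myh11-Cre. Per length, Acta2 stood at 1.2, 1.49 and 1.61 of Myh11 in Itga8-Cre, at 1.28, 2.10 and 1.85 in Myh11-Cre and at 2.62, 1.04 and 1.32 in Wild Type, so the ratio of Acta2 to the myosin heavy chain overlapped in all groups. Itga8 had CPM of 54.1, 76.5 and 62.9 across Itga8-Cre, 72.4, 298 and 300 across Myh11-Cre and 475, 147 and 196 across Wild Type, and was called lower in Itga8-Cre against Wild Type by DESeq2 (adjusted p = 0.0482) and not by edgeR (-2.08, SE 0.59, adjusted p = 0.699).

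Myh10, the nonmuscle myosin IIB heavy chain, had the smallest p of the pathway against Wild Type in both Cre groups. Its CPM were 99, 115 and 90.2 across Itga8-Cre and 79.4, 109 and 118 across Myh11-Cre, all below the 169, 168 and 154 CPM of Wild Type. The log2 fold changes were -0.69 and -0.68 (SE 0.16 each, edgeR adjusted p = 0.699 and 0.218), and DESeq2 called both (adjusted p = 0.0311 and 0.00970). In these comparisons DESeq2 called 0.166% and 4.44% of all genes. Parva, a parvin of integrin adhesions, had CPM of 118, 125 and 99.8 across Itga8-Cre, 110, 111 and 91.4 across Myh11-Cre and 133, 143 and 163 across Wild Type (-0.35 and -0.49, SE 0.13 each), and DESeq2 called the second (adjusted p = 0.0323). Itga1, the alpha 1 integrin, was at 159, 132 and 132 CPM in Itga8-Cre against 183, 170 and 183 CPM in Wild Type (-0.34, SE 0.13). In these 3 genes the Cre and Wild Type libraries compared did not overlap.

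Sgcb, another sarcoglycan, lay higher in Myh11-Cre at 43, 58.3 and 64.4 CPM than in Wild Type at 39, 38.9 and 35.9 CPM (0.54, SE 0.14, edgeR adjusted p = 0.218, DESeq2 adjusted p = 0.0397). Between the Cre groups, Arhgef1, a guanine nucleotide exchange factor, lay higher in Itga8-Cre (123, 167 and 159 CPM) than in Myh11-Cre (106, 83.7 and 99.5 CPM), with 0.63 (SE 0.15, edgeR adjusted p = 0.521). Mrtfa, a cofactor of serum response factor, was at 29.6, 39.2 and 33.8 CPM against 24.8, 24.8 and 29.6 CPM (0.37, SE 0.12, adjusted p = 0.521), with Itga8-Cre 1 only just above Myh11-Cre 3, and Sgcb was lower (-0.40, SE 0.14, adjusted p = 0.521). Srf itself ranged from 22 to 43 CPM and Myocd, myocardin, from 13.3 to 37.2 CPM over the 9 libraries. Both were lowest in Myh11-Cre 1.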

How the data were processed

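Polyadenylated RNA of 9 aortae was read as single 75 nt reads from stranded libraries, per the labels' protocols. The authors deposited a table of raw counts per gene, which was used for every value. The submitters' processing notes name the genome GRCm38.p6 and, with no role, STAR 2.7.0f, Salmon 0.13.1, fastp 0.20.0, Subread 1.6.4, featureCounts and DESeq2. The sources used here do not give the annotation release or the strand setting of the counting. Exon bases are shared with a gene on the opposite strand in 13 of the 36 genes (67.9% of those of Tagln), so their counts are uncertain if strand was not used.

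In R 4.3.3, edgeR 4.0.16 fitted group means to all 9 libraries (filterByExpr, TMM factors, robust quasi-likelihood F test, Benjamini-Hochberg adjustment over 19412 genes, threshold 0.05, common biological coefficient of variation 0.294). DESeq2 1.42.0 and limma 3.58.1 (voom) were alternatives. CPM used TMM-scaled totals, and RPKM used GENCODE M21 exon lengths. Groups did not overlap when all 3 libraries of one lay above all 3 of the other. Each main p-value sets a difference against the spread between mice within all 3 groups, estimated with information shared across genes. The genes, lists and tests were chosen with earlier results of these data known, so no list was tested as a whole. Named genes were the 5 of the 36 with the smallest p in each comparison, with Acta2, Tagln, Cnn1, Myl9, Mylk and Des in all. From the pathway list they were Myh11, Itga8 and the 3 others with the smallest p. Other genes were named after their values were seen.

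The labels do not say that a mouse number marks a shared litter or day. Residuals of same-numbered libraries were correlated above 0.1 in all 3 pairs of Itga8-Cre with Myh11-Cre (0.45, 0.24 and 0.19), in 2 of 3 pairs of Itga8-Cre with Wild Type and in 1 of 3 of Myh11-Cre with Wild Type (6 of 9 in all, range -0.01 to 0.45, against 2 of 18 pairs with other numbers, range -0.43 to 0.20). These values do not establish a pairing, since Itga8-Cre 3 with Myh11-Cre 2, of other numbers, had 0.203 against 0.193 for Itga8-Cre 3 with Myh11-Cre 3. The main p-values and SEs treat the libraries as unpaired. Mouse number was a block in an alternative fit only.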

Additional observations from a re-analysis of the deposited data

How the results depend on the processing

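Without any 1 library, and under other scaling factors, library totals, no filter on low counts, 2 groups only, voom and a skeletal muscle covariate, edgeR or voom called 0 of the 36 genes in each comparison. With mouse number as a replicate block the count was 0 in each comparison too, so the block changed no call of the 36, and the medians were -0.42, -0.06 and -0.34 for Itga8-Cre against Wild Type, Myh11-Cre against Wild Type and Itga8-Cre against Myh11-Cre. The exceptions, in Myh11-Cre against Wild Type, were 1 gene with DESeq2 and 5 without the libraries poorest in muscle (Itga8-Cre 1 and Myh11-Cre 1). Of the 61 pathway genes DESeq2 called 2 in Itga8-Cre (Itga8, Myh10) and 3 in Myh11-Cre (Sgcb, Parva, Myh10) against Wild Type. It called 0.166% and 4.44% of all genes in these comparisons. Without the poorest libraries, edgeR called 5 pathway genes in Myh11-Cre against Wild Type, where it called 1.34% of all genes. The counts over the pathway list under these alternatives, and the counts without overlap with 1 library left out, were chosen after the data were seen.

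The median of the 36 in Myh11-Cre against Wild Type ran from -0.18 to 0.19 with 1 library left out, and was -0.80 without the libraries richest in skeletal muscle (Itga8-Cre 3, Myh11-Cre 2 and 3) and 0.17 without the poorest. That of Itga8-Cre against Myh11-Cre turned to 0.43 without the richest. Leaving out the richest keeps 1 Myh11-Cre library, Myh11-Cre 1, on which both of these values rest. The number without overlap was 2 under library totals for Itga8-Cre against Wild Type, and ran from 9 to 15, 3 to 17 and 0 to 28 in the 3 comparisons with 1 library left out. As ratios to Acta2 it ran from 7 to 19, 6 to 10 and 0 to 21.

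Of the values of named genes, 825 kept direction and side of the threshold, 10 passed it and 39 reversed. In Myh11-Cre against Wild Type, Cnn1 reversed to -0.048 with voom, -0.044 with the replicate block, -0.52 with the skeletal muscle covariate and -1.67 without the richest libraries, and Myl9 to -0.23 with the covariate and -1.11 without the richest. Without the richest, where Myh11-Cre 1 is the only Myh11-Cre library, Des, Hspb6 and Ldb3 turned to -0.21, -0.32 and -0.27. Without the poorest, Acta2, Tagln, Mylk and Itga8 turned to 0.089, 0.29, 0.18 and 0.13. With 1 library left out, Acta2 ran from -0.58 to 0.43, Tagln from -0.33 to 0.49, Mylk from -0.30 to 0.18, Itga8 from -0.57 to 0.39, Cnn1 from -0.20 to 0.70 and Myl9 from -0.091 to 0.65. In Itga8-Cre against Myh11-Cre, without the richest and so against Myh11-Cre 1 alone, Actg2 turned to 0.13, Hspb6 to 0.21, Myl9 to 0.40, Ldb3 to 0.44, Acta2 to 0.63, Tagln to 0.44, Cnn1 to 0.52, Mylk to 0.40, Des to 0.42 and Myh11 to 0.55. The cause of these changes was not tested. Library totals moved the median of all genes to -0.11 in Myh11-Cre against Wild Type and to 0.13 in Itga8-Cre against Myh11-Cre. Acta2, Tagln, Cnn1 and Myl9 had SEs of 0.45 to 0.60 on the log2 scale with 3 mice a group, and the part of depth in them was not tested.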
